A study of Mus musculus with 7 samples.

Results

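Endothelial cells, which line blood vessels, were taken from 4 single-cell RNA libraries of mouse liver, NEJ634, NEJ687, NEJ709 and NEJ723, which the study names as tumors. A barcode was kept as a cell when it held over 1000 unique molecular identifiers (UMIs, each a tag of 1 captured transcript) with at most 20% from mitochondrial genes. It was counted as endothelial when Cdh5, Kdr, Ptprb, Egfl7, Stab2, Gpr182 and Clec4g together gave at least 4 UMIs and at least 0.2% of its UMIs outside mitochondrial and haemoglobin genes, and when the complement genes C1qa, C1qb and C1qc gave under 1%. These limits left 2207 of 81779 kept barcodes, of 100676 in all 7 libraries. They numbered 2013 in NEJ634, 120 in NEJ687, 18 in NEJ709 and 56 in NEJ723, so that 91.2% came from NEJ634. The same limits left 2637 of 6377 barcodes in NEJ638, 1923 of 5674 in NEJ654 and 1999 of 6846 in NEJ677, the other 3 libraries.

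The study describes ABC-Myc (Alb-Cre;CAG-Myc) mice on a C57BL/6J background as the source of the tumors, in which Cre under albumin control removes a stop cassette and lets the CAG promoter drive human c-MYC in hepatocytes. It reports single cells from 4 tumors and 3 healthy livers. The labels, however, call every library a hepatoblastoma murine model of liver tissue and give no genotype, treatment, age or control group. The division into 4 libraries and the other 3 therefore rests on the selection and on the study's naming of the tumors, not on the labels. The libraries are not replicates of labelled groups, and no p-value was computed. Livers were perfused and digested with collagenase IV before capture, with no sort named for these cells.

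In the liver, most capillaries are sinusoids, whose endothelium has open pores, lacks a continuous basement membrane and clears waste from blood through scavenger receptors. Sinusoidal endothelium also makes ligands such as WNT2, R-spondin 3 and BMP2, which act on hepatocytes and set zonation and iron handling. Larger vessels have a closed endothelium, in which von Willebrand factor and CD34 are common markers, and PLVAP forms the diaphragms across the pores of fenestrated capillaries.

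The share of kept barcodes counted as endothelial was 4.95% in NEJ634 (exact 95% Clopper-Pearson interval 4.74 to 5.17), 1.59% in NEJ687 (1.32 to 1.90), 0.0838% in NEJ709 (0.0497 to 0.132) and 0.463% in NEJ723 (0.35 to 0.6). It was 41.4% in NEJ638, 33.9% in NEJ654 and 29.2% in NEJ677, above each of the 4. A lower share of endothelial cells and more barcodes of other kinds cannot be told apart from a share, and neither can loss during digestion. All intervals here cover counting error only.

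**Figure D1:**
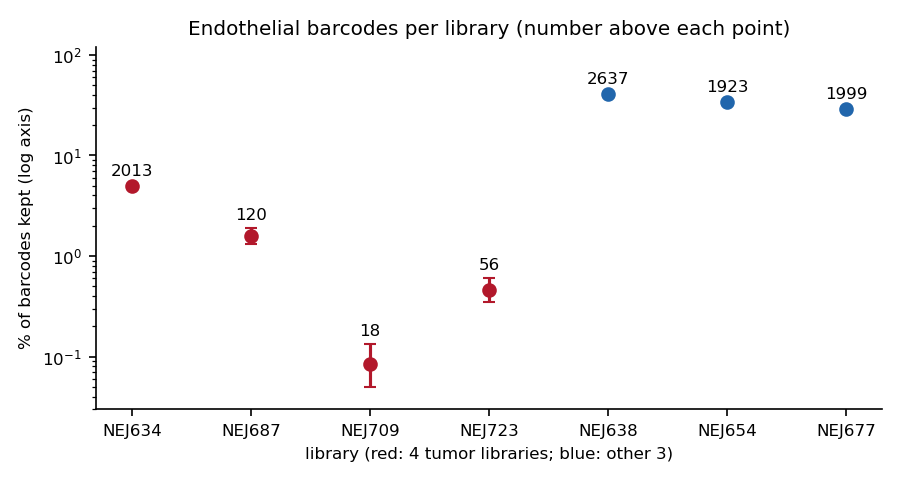
Share of kept barcodes counted as endothelial (percent) in each of the 7 libraries, with exact 95% intervals. The 4 libraries named as tumors lie between 0.0838% and 4.95%, and the other 3 between 29.2% and 41.4%.

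NEJ634 stood apart from the other libraries of the selection in depth. Its cells had a median of 1946 UMIs, against 6363.5 in NEJ687, 4964.5 in NEJ709 and 7028.5 in NEJ723. The 7 selecting genes made up a median of 0.372% of a cell's UMIs in NEJ634, 0.728% in NEJ687, 0.649% in NEJ709 and 0.651% in NEJ723, and 1.12% to 1.19% in the other 3 libraries. In ambient RNA, read from barcodes ranked 45000 to 90000 by UMIs, those genes made up 0.0398%, 0.0458%, 0.0109% and 0.00961%. Ambient barcodes held a mean of 570 UMIs in NEJ634 and 76.6, 23 and 324 in NEJ687, NEJ709 and NEJ723. Of the NEJ634 cells, 12 had barcodes that also passed 1000 UMIs in NEJ709, 7 in NEJ723 and 3 in NEJ687, and 2, 4 and 2 in NEJ638, NEJ654 and NEJ677. Such barcodes made up 1.49% of the NEJ634 cells, against 1.74% of all kept barcodes of NEJ634. In NEJ709, 1 cell had such a barcode in NEJ687. The description of NEJ709 in the labels names NEJ634. Xist, transcribed from the inactive X chromosome, had 3711 UMIs in NEJ634 cells and 0 in those of NEJ687, NEJ709 and NEJ723. For some genes, values are also given below in a stricter set, chosen after seeing the data. It held cells over 2000 UMIs with at least 0.4% from the selecting genes, which numbered 316, 89, 10 and 38.

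The endothelial label was checked on genes that the selection did not use. Levels are given as UMIs per 1000000 UMIs outside mitochondrial and haemoglobin genes (CPM), summed over the cells of a library. Pecam1 (CD31, an adhesion molecule of endothelial junctions, ENSMUSG00000020717, chromosome 11, 106654217 to 106750628, minus strand in GENCODE M21, GRCm38) was at 263 CPM in NEJ634 (249 to 278), 430.1 in NEJ687 (391 to 472), 426 in NEJ709 (321 to 553) and 622 in NEJ723 (550.0 to 700.5), with exact 95% Poisson intervals in parentheses. The other kept barcodes of the same libraries had 35.4, 10.6, 20.2 and 9.4 CPM and ambient RNA 43.9, 23.6, 21.1 and 12.4 CPM. Cldn5, a tight-junction protein, was at 158 CPM in NEJ634, 449 in NEJ687, 327 in NEJ709 and 546 in NEJ723. Tie1, a receptor kinase restricted to endothelium and some blood cells, was at 112 CPM in NEJ634, 186 in NEJ687, 289 in NEJ709 and 390.1 in NEJ723. NEJ634 was lowest of the 4 for all 3 genes. In the stricter set Pecam1 was at 399, 480.2, 596 and 729 CPM in the same order of libraries. In the other 3 libraries Pecam1 was at 474, 523 and 611 CPM, with NEJ723 above that range and NEJ634, NEJ687 and NEJ709 below it.

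Over 20 pan-endothelial genes, the summed level was 3111 CPM in NEJ634, 6102 in NEJ687, 5562 in NEJ709 and 6714 in NEJ723, 11.9, 104, 40.7 and 146 times that of other barcodes. A gene was called higher where it was at 50 CPM or more and at least 4-fold above other barcodes of its library, with intervals that did not overlap. This was met by 7.30% of 3382 genes tested in NEJ634, 20.1% of 3291 in NEJ687, 23.7% of 3716 in NEJ709 and 20.7% of 3390 in NEJ723. In each of NEJ634, NEJ687 and NEJ723, the libraries with at least 20 cells, 231 of 2545 genes (9.08%) were called, and 18 of the 20 pan-endothelial genes reached 50 CPM and were called. The other two, Sox7 and Tmem204, were under 50 CPM in at least 1 of these libraries. Since the cells were chosen by co-expressed genes, these folds describe them and are no test.

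The promoters of 3 pan-endothelial genes are shown because their RefSeq windows hold 2 copies of AGGAAG, a form of the site bound by ETS factors, a family that includes the endothelial regulators ERG and FLI1. Each window is the 250 bases before the annotated start in GRCm38.p6, given 5′ to 3′ on the gene's strand, with AGGAAG or its reverse complement in capitals. Emcn (chr3:137340828-137341077, plus strand) encodes endomucin, Eng (chr2:32646345-32646594, plus strand) the TGF-beta co-receptor endoglin, and Flt1 (chr5:147726012-147726261, minus strand) VEGF receptor 1.
Emcn: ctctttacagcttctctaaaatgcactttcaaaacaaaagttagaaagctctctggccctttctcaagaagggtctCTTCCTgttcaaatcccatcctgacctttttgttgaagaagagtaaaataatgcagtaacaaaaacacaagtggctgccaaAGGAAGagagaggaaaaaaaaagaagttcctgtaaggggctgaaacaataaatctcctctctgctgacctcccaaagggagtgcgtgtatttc
Eng: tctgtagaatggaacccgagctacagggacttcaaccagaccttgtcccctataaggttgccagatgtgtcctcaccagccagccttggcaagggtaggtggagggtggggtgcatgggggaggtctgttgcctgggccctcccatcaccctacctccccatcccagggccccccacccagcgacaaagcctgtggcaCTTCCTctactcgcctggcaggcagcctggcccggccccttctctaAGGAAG
Flt1: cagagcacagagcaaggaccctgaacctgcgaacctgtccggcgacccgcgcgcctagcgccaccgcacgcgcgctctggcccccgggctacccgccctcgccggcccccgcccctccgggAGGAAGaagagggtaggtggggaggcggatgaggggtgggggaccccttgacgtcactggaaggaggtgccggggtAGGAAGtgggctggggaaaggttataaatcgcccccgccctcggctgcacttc
List windows on a skipped chromosome were left out, a filter not applied to the 32851 windows of all genes. Of the 20 genes, 11 kept 13 windows, of which 8 (61.5%) held the motif on either strand, against 29.5% of all 32851. Of the 13, 3 (23.1%) held it at least 2 times, against 6.25% of the 32851. A match describes letters in the window, not a bound site. Emcn was at 72.6 CPM in NEJ634, 141 in NEJ687, 152 in NEJ709 and 250.1 in NEJ723. Eng was at 511 CPM in NEJ634, 831 in NEJ687, 836 in NEJ709 and 718 in NEJ723, and Flt1 at 293 CPM in NEJ634, 539 in NEJ687, 517 in NEJ709 and 583 in NEJ723. All 3 were lowest in NEJ634.

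Receptors for vascular growth factors marked the cells in every library of the selection. Of 13 VEGF and TIE pathway genes, 6 reached 50 CPM in each of the 3 libraries with at least 20 cells, besides Kdr, which the selection used, and those 6 were called. They were Flt1, Flt4 (VEGF receptor 3), the co-receptors Nrp1 and Nrp2, and the angiopoietin receptor genes Tie1 and Tek. Flt4 was at 267 CPM in NEJ634, 393 in NEJ687, 646 in NEJ709 and 425 in NEJ723. The ligands were low: Vegfa was at 37.7, 53.5, 45.6 and 27.5 CPM, at most 2.93 times its level in other barcodes (34.9, 18.3, 27 and 26 CPM). Angpt2, a TEK ligand of remodelling vessels, was at 14.6, 36, 38 and 43.6 CPM in NEJ634, NEJ687, NEJ709 and NEJ723.

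Basement membrane genes were also shared, with 5 of 6 genes at 50 CPM called in each of the 3 libraries. They were Col4a1, Col4a2, Nid1, Hspg2 and Sparc. Sparc, a collagen-binding matrix protein, was at 1651 CPM in NEJ634, 3486 in NEJ687, 2135 in NEJ709 and 3144 in NEJ723. Col4a1, a type IV collagen chain, was at 643 CPM in NEJ634, 754 in NEJ687, 1087 in NEJ709 and 1519 in NEJ723. NEJ723 was highest of the 4 for Col4a1 and Col4a2, with intervals for Col4a1 of 1406 to 1639 CPM, above those of NEJ634 and NEJ687. Fn1 (fibronectin) was at 82.4, 52.6, 30.4 and 18.4 CPM, below ambient RNA in each library (178, 90, 207 and 169 CPM).

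Among 26 transcription factors of endothelium, 18 were at 50 CPM in each of the 3 libraries and 9 of these were called in each. Sox18, a factor of vessel development, was at 69.7 CPM in NEJ634, 174 in NEJ687, 266 in NEJ709 and 197 in NEJ723. Meis2, a homeobox factor, was at 142, 246, 410.3 and 213 CPM, and Epas1 (HIF-2 alpha) at 162, 307, 243 and 365 CPM. Tal1 and Lmo2, which blood progenitors also use, were not called. Klf2, which laminar flow induces in endothelium, was at 154 CPM in NEJ634, 308 in NEJ687, 205 in NEJ709 and 135 in NEJ723, against 524, 783 and 503 CPM in NEJ638, NEJ654 and NEJ677. The 4 libraries did not overlap the other 3 for Klf2, but the nearest libraries, NEJ687 and NEJ677, lay under 2-fold apart. Klf4 was at 94.1, 121, 98.8 and 71.1 CPM in the 4 and 294, 247 and 228 CPM in the other 3, again without overlap.

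**Figure D2:**
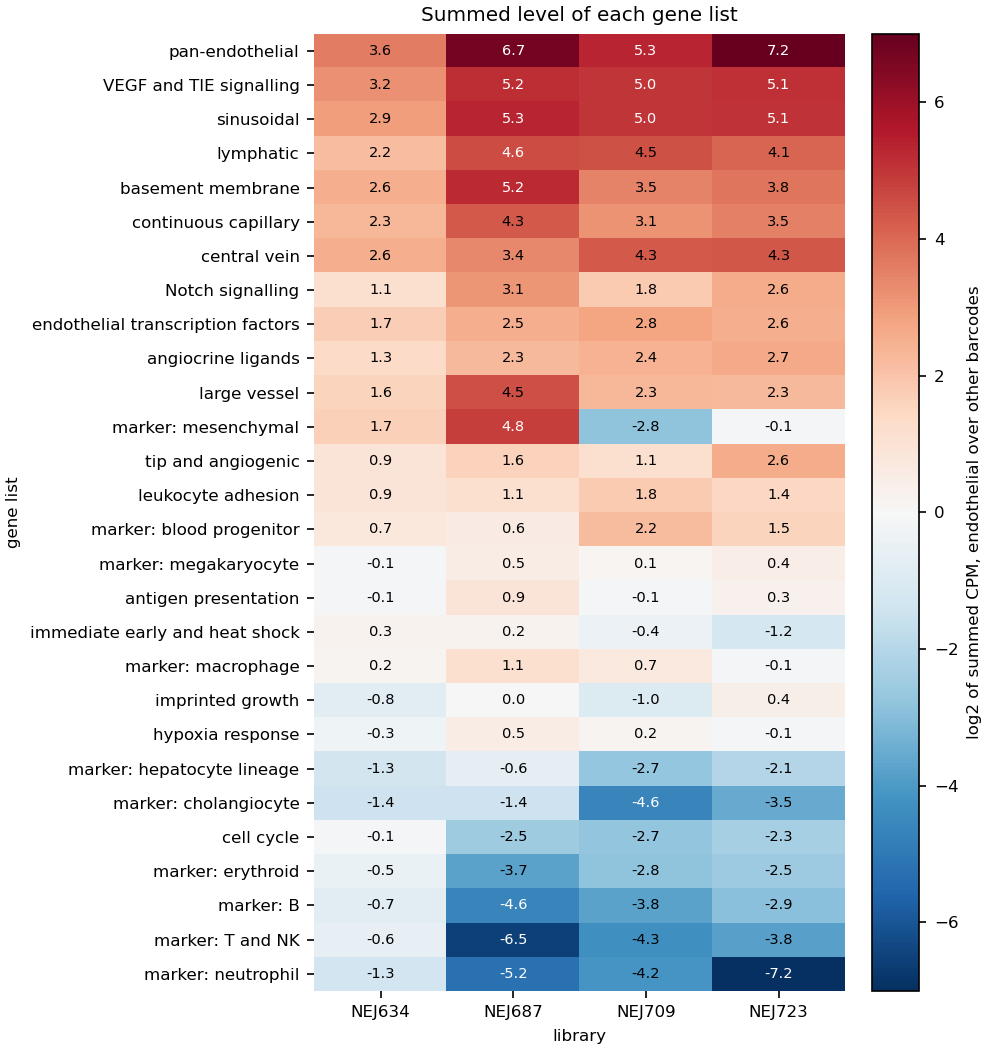
Summed level of each gene list in endothelial cells over that in other kept barcodes of the same library (log2 of the ratio), for NEJ634, NEJ687, NEJ709 and NEJ723. Pan-endothelial and sinusoidal lists are far above 0 in each library (sinusoidal 7.58, 40.5, 31.8 and 33.5 times), while cell cycle and neutrophil lists lie below it. The selection used endothelial and sinusoidal genes, so the height of these lists is fixed in part.

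Genes of sinusoidal endothelium were present in all 4 libraries. The summed level of 16 such genes was 4556 CPM in NEJ634, 7013 in NEJ687, 9749 in NEJ709 and 5689 in NEJ723. It was 13107, 9857 and 11591 CPM in NEJ638, NEJ654 and NEJ677, above each of the 4, though the counting interval of NEJ709 (9223 to 10297) covered NEJ654. The pan-endothelial sum was also above each of the 4 there, at 7340, 7546 and 8257 CPM, so the difference was not particular to sinusoidal genes. The part of this in lower single genes was not tested. Of the 14 genes that reached 50 CPM, 12 were called in each of the 3 libraries with at least 20 cells. Stab2, Gpr182 and Clec4g, which the selection used, are themselves sinusoidal, so such calls are fixed in part and are no test. Clec1b and Il1a were at 50 CPM and not called in NEJ634.

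Lyve1, the hyaluronan receptor LYVE-1 (ENSMUSG00000030787, chromosome 7, 110850607 to 110863239, minus strand), was at 458 CPM in NEJ634 (439 to 477), 927 in NEJ687 (869 to 988), 790.2 in NEJ709 (646 to 957) and 1368 in NEJ723 (1260.0 to 1482). It was at 360.1, 229 and 389.6 CPM in NEJ638, NEJ654 and NEJ677. Each of the 4 libraries was above the highest of the other 3, NEJ677, but NEJ634 by under 2-fold, so the gene was not counted as separating them. In the stricter set Lyve1 was at 650.2, 1100.3, 1335 and 1557 CPM in the 4 libraries and 387, 237 and 403 CPM in the other 3. After each cell was thinned to 1000 UMIs, a Lyve1 UMI was found in 29.6% in NEJ634, 46.7% in NEJ687, 33.3% in NEJ709 and 50% in NEJ723, against 3%, 0.133%, 0.633% and 0.1% of other barcodes. Such a share was 26%, 17.8% and 28.6% in cells of NEJ638, NEJ654 and NEJ677. The counting interval of NEJ677 (26.6 to 30.6) overlapped that of NEJ634 (27.6 to 31.7). Within each of 3 ranges of the share of UMIs from the selecting genes, Lyve1 in NEJ634 was above each of these 3 libraries. It was at 353, 543 and 676 CPM in NEJ634 from cells with 0.2% to 0.4%, through 0.4% to 0.6%, to 0.6% and over. In the same ranges the other 3 were at 95.3, 107 and 126 CPM, 198, 139 and 192 CPM and 396, 247 and 417 CPM. The ranges rest on genes that the selection used and do not make the cells alike. At 0.2% to 0.4%, the hepatocyte gene Alb was at 1042 CPM in NEJ634 and 8148, 8805 and 5017 CPM in the other 3. The top range is open, and the median share of all cells was 0.372% in NEJ634 and 1.12%, 1.18% and 1.19% in the other 3. The part of these differences in Lyve1 was not tested.

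Other scavenging receptors, summed over all cells, were lower in NEJ634, NEJ687 and NEJ723 than in the other 3 libraries. Fcgr2b, which clears immune complexes in sinusoids (ENSMUSG00000026656, chromosome 1, 170958617 to 170976547, minus strand), was at 625 CPM in NEJ634 (603 to 648), 1113 in NEJ687 (1049.7 to 1179.8), 995 in NEJ709 (832 to 1181) and 576 in NEJ723 (507 to 652), and at 1762, 1449.8 and 1484 CPM in NEJ638, NEJ654 and NEJ677. The highest of the 4, NEJ687, was below the lowest of the other 3, NEJ654, by under 2-fold. In cells with at least 0.6% of UMIs from the selecting genes, Fcgr2b was at 1121, 1617, 1451 and 837 CPM in the 4 and 1948, 1616 and 1607 CPM in the other 3, so that NEJ687 overlapped them. At 0.4% to 0.6% it was at 685, 653, 854 and 211 CPM and 852, 609 and 589.7 CPM, and at 0.2% to 0.4% at 442, 395, 481 and 237 CPM and 480.4, 337 and 325 CPM. In both lower ranges NEJ634, NEJ687 and NEJ709 reached the range of the other 3 and NEJ723, with 15 and 8 cells, lay below it. NEJ709 had only 3 and 6 cells in these ranges. Its value at 0.4% to 0.6% rested on 5 UMIs (277 to 1994 CPM). As given for Lyve1, such ranges do not make the cells of different libraries alike. Mrc1, the mannose receptor, was at 524, 655, 1223 and 571 CPM in the 4 and 1465, 1108 and 1273 CPM in the other 3, where NEJ709, with 18 cells, lay inside the range. Stab1, the scavenger receptor stabilin-1, was at 302, 549.8, 988 and 562 CPM and 1015, 773 and 883 CPM, and NEJ709 again overlapped.

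Dnase1l3, a secreted nuclease that degrades DNA in circulating particles (ENSMUSG00000025279, chromosome 14, 7964533 to 7994573, minus strand), was at 385 CPM in NEJ634 (368 to 403), 657 in NEJ687 (608 to 708), 874 in NEJ709 (721 to 1049) and 360.3 in NEJ723 (306 to 421). The other 3 libraries had 2072, 1881 and 2227 CPM in NEJ638, NEJ654 and NEJ677. NEJ634, NEJ687 and NEJ723 were each over 2-fold below NEJ654, the lowest of the other 3, as they also were in the stricter set (647, 750.0, 1278 and 383 CPM against 2122, 1946 and 2294 CPM). Libraries were counted as separated for a gene where NEJ634, NEJ687 and NEJ723 all lay at least 2-fold above, or below, each of the other 3, at 50 CPM in the higher ones. Of 3312 genes, 50 (1.51%) were lower in this sense and 31 (0.936%) higher. Of 14 sinusoidal genes tested, 2 were lower and 0 higher, Dnase1l3 and the semaphorin receptor Plxnc1 (206, 272, 456 and 195 CPM against 934, 588 and 673 CPM). Plxnc1 did not separate the libraries in the stricter set.

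Gata4, a transcription factor of sinusoidal identity, was at 83.8, 98.3, 91.2 and 108 CPM in NEJ634, NEJ687, NEJ709 and NEJ723 and at 189, 138 and 161 CPM in NEJ638, NEJ654 and NEJ677. Maf, a factor with a like role, was at 619, 812, 1793 and 585 CPM and 2395, 1188 and 1502 CPM, with NEJ709 inside the range of the other 3. Clec1b, a receptor for podoplanin, was at 223, 441, 312 and 122 CPM against 72.5, 187 and 178 CPM, and its level in ambient RNA was 78.4, 68.8, 47.4 and 13.8 CPM. F8, coagulation factor VIII, was at 236, 349, 684 and 145 CPM, and NEJ723 was the lowest. Oit3, a liver endothelial gene, was at 249.8, 404, 517 and 317 CPM and was called in each of the 4 libraries.

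**Figure D3:**
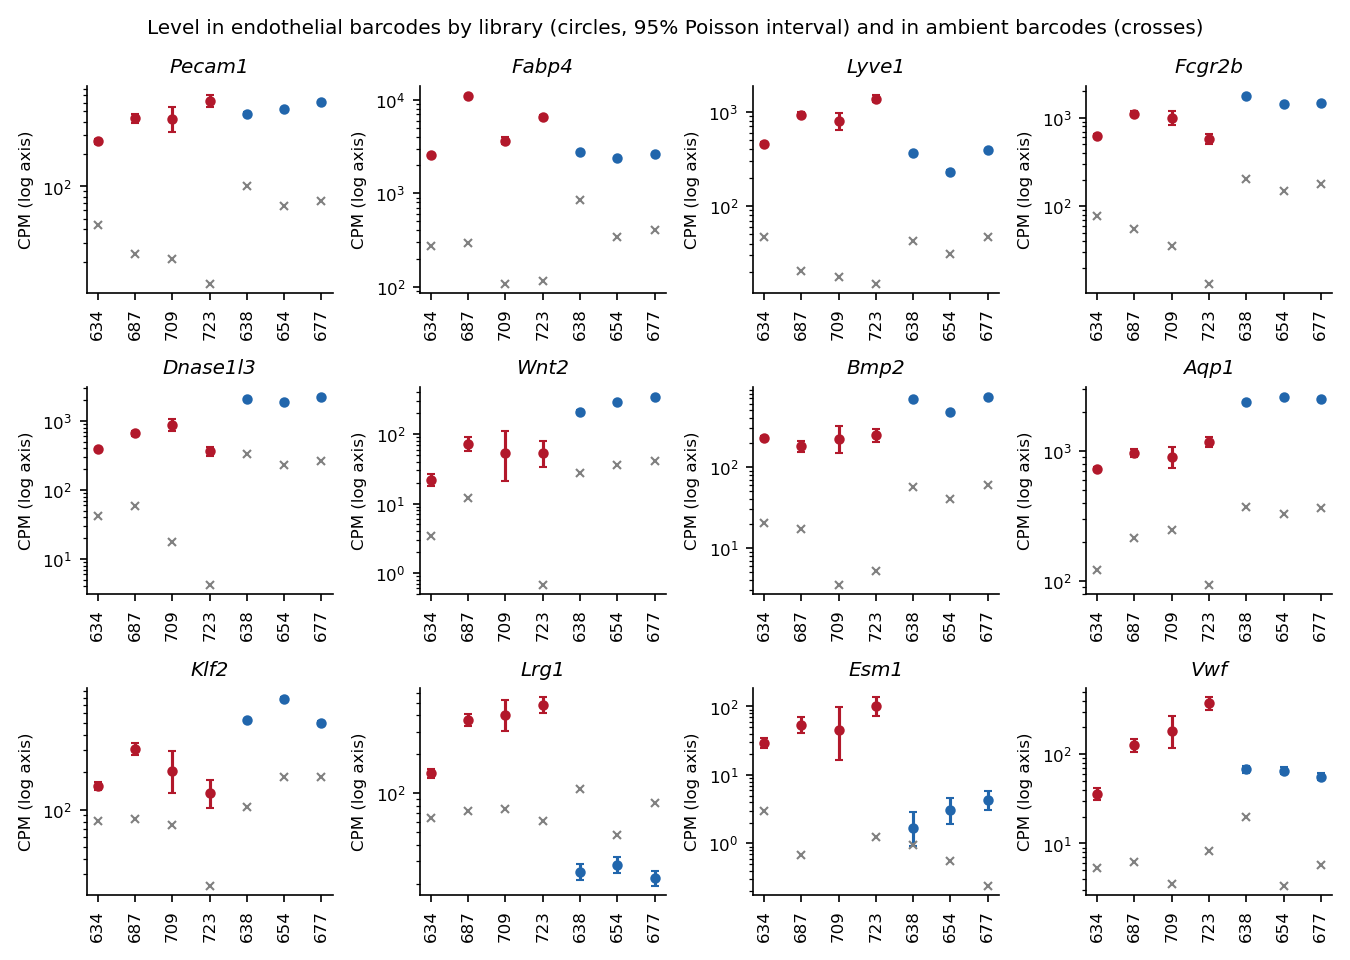
Level of 12 genes in endothelial cells of the 7 libraries (CPM, log axis). Circles are sums over cells with exact 95% Poisson intervals and crosses are ambient RNA of the same library, left out where it held 0 UMIs. Dnase1l3 and Wnt2 lie lower in the 4 libraries named as tumors than in the other 3, and Lrg1 lies higher.

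Fabp4, a fatty acid carrier of capillary endothelium (ENSMUSG00000062515, chromosome 3, 10204088 to 10208576, minus strand), had its highest level in NEJ687. It was at 2598 CPM in NEJ634 (2553 to 2644), 10949 in NEJ687 (10748 to 11154), 3662 in NEJ709 (3343 to 4004) and 6572 in NEJ723 (6334 to 6817), against 2794, 2362 and 2632 CPM in NEJ638, NEJ654 and NEJ677. Summed over all cells, NEJ634 lay inside the range of the other 3 and the remaining libraries above it. Within each range of selecting-gene share, given further below, NEJ634 was above the other 3. Thinned to 1000 UMIs, 74.3% in NEJ634, 97.5% in NEJ687, 72.2% in NEJ709 and 89.3% in NEJ723 of cells held a Fabp4 UMI, against 14.8%, 2.77%, 5% and 2.47% of other barcodes. The gene was thus found in most cells of each library, and, after the same thinning, cells with both a Fabp4 and a Lyve1 UMI numbered 478 of 2013 in NEJ634, 54 of 120 in NEJ687, 6 of 18 in NEJ709 and 27 of 56 in NEJ723. Gpihbp1, which anchors lipoprotein lipase to capillaries, was at 647, 2373, 1284 and 2618 CPM in the 4 libraries and 1319, 2479.8 and 2181 CPM in the other 3, which overlapped.

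Over the 16 continuous capillary genes, 6 of 8 at 50 CPM were called in each of the 3 libraries. Aqp1, a water channel that red cells also express, was the 1 gene of 9 that separated the libraries, at 732, 964, 897 and 1163 CPM against 2389, 2585 and 2497 CPM, and it did not do so in the stricter set (1179, 1053, 1193 and 1277 CPM against 2442, 2689.7 and 2578 CPM). Several other capillary genes differed between the libraries of the selection. Plvap, which forms the diaphragms of endothelial pores (ENSMUSG00000034845, chromosome 8, 71497765 to 71511752, minus strand), was at 98.2 CPM in NEJ634 (89.6 to 107), 110.0 in NEJ687 (90.6 to 132), 152 in NEJ709 (92.8 to 235) and 404 in NEJ723 (346 to 468). Cd34, a sialomucin of capillaries and blood progenitors, was at 26.8 CPM in NEJ634 (22.4 to 31.9), 15.6 in NEJ687 (8.9 to 25.3), 68.4 in NEJ709 (31.3 to 129.8) and 172 in NEJ723 (135 to 216). Ly6c1 was at 7.58, 39.9, 53.2 and 115 CPM in the 4, and Sparcl1, a matrix protein, at 2.46, 14.6, 0 and 71.1 CPM. NEJ723 was the highest library for all of these genes. In NEJ638, NEJ654 and NEJ677, Plvap was at 154, 203 and 207 CPM and Cd34 at 17.3, 17.9 and 12.7 CPM.

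Vwf, the gene of von Willebrand factor and a marker of larger vessels, was also highest in NEJ723 when all cells of a library were summed. It (ENSMUSG00000001930, chromosome 6, 125546774 to 125686679, plus strand), was at 35.9 CPM in NEJ634 (30.7 to 41.6), 126 in NEJ687 (105 to 149), 182 in NEJ709 (117 to 271) and 372 in NEJ723 (317 to 434), and at 56.3 to 67.8 CPM in the other 3 libraries. NEJ634 was below that range and NEJ687, NEJ709 and NEJ723 above it. Gja5, the arterial connexin 40, was at 11.3, 45.7, 0 and 62 CPM in the 4 and 4.95, 4.01 and 5.74 CPM in the other 3. Gja4, connexin 37, was among the 20 genes most enriched in the cells over other barcodes, and was at 77.1, 268, 76 and 101 CPM. Cd200, an immune-inhibitory ligand, had one of the widest ranges over all cells, at 1.84, 2.92, 0 and 193 CPM in the 4 and 3.91, 6.68 and 8 CPM in the other 3 libraries. It had 84 UMIs over the 56 cells of NEJ723.

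The cells were next divided by how much of their selecting-gene UMIs came from Stab2, Gpr182 and Clec4g, the sinusoidal ones among the 7 genes. Cells with under 15% numbered 193 of 2013 in NEJ634, 4 of 120 in NEJ687, 0 of 18 in NEJ709 and 13 of 56 in NEJ723. Cells with 35% and over numbered 1162, 88, 13 and 26. Cells under 15% made up 9.59% of the cells in NEJ634, 3.33% in NEJ687 and 23.2% in NEJ723 (13 to 36.4), and 3.26%, 3.33% and 3.85% in the other 3 libraries. The share rests on few UMIs in NEJ634, where the median cell held 6 UMIs of the selecting genes, against 44.5, 30 and 34 in NEJ687, NEJ709 and NEJ723 and 27, 41 and 50 in the other 3 libraries. Cells with 0 UMIs of the 3 sinusoidal genes numbered 132 of the 193 under 15% in NEJ634, 3 of 4 in NEJ687 and 7 of 13 in NEJ723, and 21, 19 and 11 cells in the other 3 libraries. The part of depth in these shares was not tested. Near the lower limit, between 10% and 20%, lay 113 of the 2013 cells of NEJ634, 4 of 120 in NEJ687, 1 of 18 in NEJ709 and 5 of 56 in NEJ723.

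In NEJ723, genes that the division did not use differed from one range to the next. From cells with under 15%, through 15% to 35%, to 35% and over, Lyve1 was at 204, 1495 and 1689 CPM and Fcgr2b at 54.4, 532 and 800.2 CPM. In the same order Plvap was at 979.6, 350.4 and 237 CPM, Vwf at 857, 282 and 267 CPM and Cd34 at 367, 156 and 114 CPM. Ly6c1 was at 408, 75.1 and 39.5 CPM and Cd200 at 626, 219 and 14.8 CPM. Plvap, Vwf, Cd34, Ly6c1 and Cd200 were thus highest in the 13 cells with the least sinusoidal signal, and Lyve1 and Fcgr2b lowest there. The whole capillary and large-vessel lists were not summed by range. Pecam1 was at 884, 626 and 524 CPM over the same ranges. These cells came from 1 library and were ranked on genes that are co-expressed with those shown, so the values describe them.

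In NEJ634, cells with under 15% were likewise highest for Plvap (268, 80.6 and 86 CPM over the 3 ranges) and Vwf (171, 34 and 20.5 CPM), with Fcgr2b at 377, 540.3 and 695 CPM. Rspo3, the R-spondin ligand of central veins, was at 331, 52.1 and 26.4 CPM there. The other 3 libraries showed the pattern of Plvap and Vwf too. Over the 3 ranges Vwf was at 534, 72.1 and 45.5 CPM in NEJ638, 1142, 138 and 17.5 CPM in NEJ654 and 868, 78.6 and 11.3 CPM in NEJ677. Plvap was at 415, 169 and 134 CPM, 538, 261 and 180.4 CPM and 637, 268 and 162 CPM in the same libraries. Fcgr2b was lowest under 15% in each of them, at 739.5, 258 and 319 CPM. Within cells under 15%, Vwf in NEJ723 was therefore below NEJ654 and NEJ687 and close to NEJ677. Cd200 was at 76.3, 181 and 122 CPM in such cells of the other 3 libraries, below the 626 CPM of NEJ723. In NEJ638, NEJ654 and NEJ677, cells with under 15% had Rspo3 at 1198, 2752 and 3679 CPM, above the 331 CPM of NEJ634 and the 299 CPM of NEJ723. The 4 such cells of NEJ687 had 0 UMIs of Lyve1 and Fcgr2b and Vwf at 1375 CPM.

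**Figure D4:**
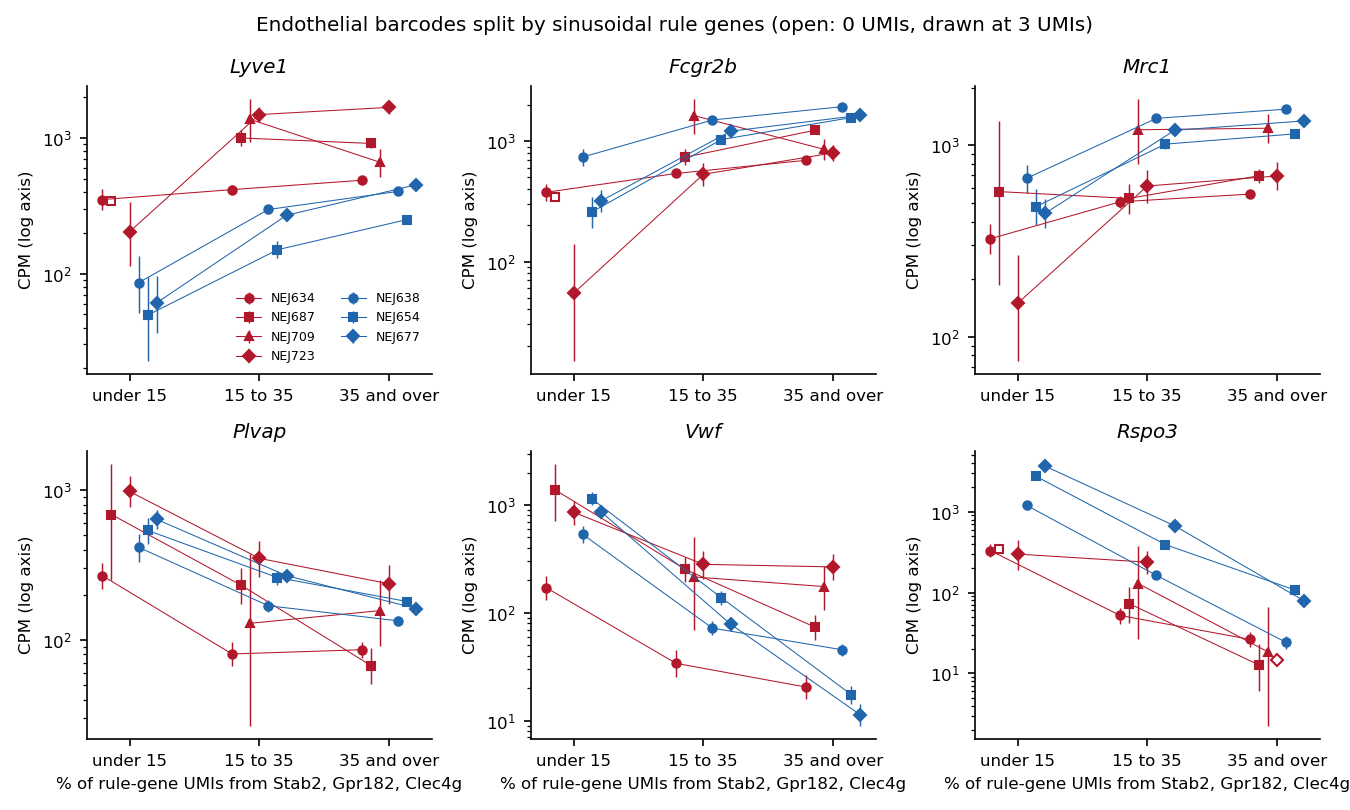
Level of 6 genes (CPM, log axis) in endothelial cells divided by the percent of their selecting-gene UMIs from Stab2, Gpr182 and Clec4g. Red marks the libraries named as tumors and blue the other 3; open symbols are 0 UMIs drawn at the level of 3 UMIs. Plvap and Vwf are highest and Fcgr2b lowest under 15% in NEJ634, NEJ723 and the other 3 libraries.

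Among ligands by which endothelium acts on hepatocytes, Wnt2, Gas6 and Cxcl12 were lower in the 4 libraries. Wnt2, a WNT ligand of pericentral sinusoids (ENSMUSG00000010797, chromosome 6, 17988940 to 18030585, minus strand), was at 22.1 CPM in NEJ634 (18.2 to 26.7), 73 in NEJ687 (57.4 to 91.5), 53.2 in NEJ709 (21.4 to 109.6) and 52.8 in NEJ723 (33.5 to 79.2). It was at 212, 286 and 338 CPM in NEJ638, NEJ654 and NEJ677. No library of the selection reached the lowest of the other 3, and the separation was also met in the stricter set (33.5, 82.9, 99.4 and 66.3 CPM against 213, 293 and 348 CPM). Gas6, the ligand of the TAM receptors, was at 29.5, 46.7, 91.2 and 66.5 CPM against 161, 201 and 258 CPM, and separated the libraries in the stricter set too. Cxcl12, a chemokine, was at 24.2, 12.7, 15.2 and 16.1 CPM against 59.7, 106 and 51.5 CPM. Its levels in the 4 libraries were near or below those of ambient RNA (41.6, 23.3, 15.8 and 14.5 CPM), and it did not separate them in the stricter set.

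Of 10 angiocrine genes tested, these 3 were lower and 0 higher. Bmp2, which controls hepcidin and iron, was at 226, 180.0, 220.4 and 246 CPM in the 4 and 694, 478 and 725 CPM in the other 3, without overlap, but the nearest libraries, NEJ723 and NEJ654, were under 2-fold apart. Rspo3 was at 57, 26.3, 38 and 138 CPM and 103, 221 and 355 CPM, where NEJ723 lay inside the range of the other 3. Kitl, stem cell factor, ran the other way in part, at 88.5, 102, 137 and 158 CPM and 96.2, 62.2 and 67 CPM. Hgf, hepatocyte growth factor, was at 52.5, 39.9, 106 and 112 CPM and 89.2, 76.8 and 107 CPM, and overlapped.

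The 14 genes of tip cells and sprouting vessels summed to 684 CPM in NEJ634, 873 in NEJ687, 1079 in NEJ709 and 1393 in NEJ723, and to 1071, 1028 and 1076 CPM in NEJ638, NEJ654 and NEJ677. Of those at 50 CPM, 2 of 4 were called over other barcodes in NEJ634, 6 of 7 in NEJ687, 5 of 5 in NEJ709 and 7 of 7 in NEJ723. NEJ723 was above the other 3 libraries in sum and NEJ634 and NEJ687 below, while the counting interval of NEJ709 (909 to 1272) covered all 3. Esm1, endocan, a tip-cell gene (ENSMUSG00000042379, chromosome 13, 113209659 to 113218098, plus strand), was at 29.3 CPM in NEJ634 (24.7 to 34.5), 54.5 in NEJ687 (41.2 to 70.8), 45.6 in NEJ709 (16.7 to 99.2) and 101 in NEJ723 (73.4 to 136), and at 1.69, 3.07 and 4.31 CPM in NEJ638, NEJ654 and NEJ677. The 4 libraries were above the other 3 and above ambient RNA (3, 0.685, 0 and 1.26 CPM), but NEJ634 was under 50 CPM and the gene was not tested for separation. Over the 3 ranges of sinusoidal share used above, from under 15% upward, Esm1 in NEJ723 was at 381, 25 and 59.3 CPM. The first value came from 28 UMIs in 13 cells. In NEJ634 it was at 13.5, 34.7 and 28.7 CPM, lowest under 15%. Kcne3, a potassium channel subunit of tip cells, was at 12.5, 22.4, 53.2 and 172 CPM and 0.652, 0.935 and 0.82 CPM. Nrp1, a VEGF and semaphorin co-receptor, was the 1 of 3 angiogenic genes tested that separated the libraries, and it was lower (196, 249, 426 and 236 CPM against 563, 679.5 and 719 CPM), though not in the stricter set. Of the 11 Notch genes, 0 of 3 at 50 CPM were called over other barcodes in NEJ634, 4 of 4 in NEJ687, 3 of 3 in NEJ709 and 5 of 6 in NEJ723. Among all genes tested, the called shares were 7.30%, 20.1%, 23.7% and 20.7% in these libraries. Dll4, the tip-cell Notch ligand, was at 41.6, 102, 76 and 108 CPM against 80.9, 106 and 90.6 CPM, which overlapped. Of 5 leukocyte adhesion genes tested, 0 separated the libraries, where 0.936% of all genes tested were higher and 1.51% lower. The summed level of the list of 10 was 1366, 1798, 2499.9 and 1843 CPM in the 4 and 2213, 1523 and 1790.4 CPM in the other 3, which overlapped. Within the list, 2 members, chosen after their values were seen, were higher in each of the 4, Sele at 26.2, 14.6, 15.2 and 20.7 CPM against 4.43, 1.34 and 4.41 CPM and Vcam1 at 363, 324, 1155 and 179 CPM against 137, 85.9 and 94.7 CPM, with Vcam1 in ambient RNA at 239, 82.1, 133 and 96.1 CPM.

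The 10 genes with the widest separation downward included Wnt2 and, beyond the fixed lists, Serpina3k, Cyp26b1, Gm34455, Tnfsf10, Tpbgl, Ecm1, Ehd3 and Pcdh12. Cyp26b1, which degrades retinoic acid, was at 9.84 CPM in NEJ634, 25.3 in NEJ687, 38 in NEJ709 and 6.88 in NEJ723, against 206, 142 and 308 CPM in NEJ638, NEJ654 and NEJ677. Ehd3, an endocytic recycling protein, was at 434, 637, 494 and 296 CPM against 2828, 1979 and 2073 CPM. Pcdh12, an endothelial protocadherin, was at 38.7, 54.5, 98.8 and 52.8 CPM against 160.2, 163 and 168 CPM. All 3 genes separated the libraries in the stricter set as well. Serpina3k, a secreted hepatocyte protease inhibitor, was at 0.82, 0.973, 0 and 0 CPM against 169, 76.5 and 81.7 CPM. Ambient RNA of NEJ638, NEJ654 and NEJ677 held far more of it, at 1946, 704 and 1219 CPM, and its part in the difference was not tested. Cyp26b1, Ehd3 and Pcdh12 were at most 28.7, 385 and 26.7 CPM in ambient RNA of those 3 libraries, below their levels in the cells. Of the 50 lower genes, 29 separated the libraries in the stricter set.

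Upward, the 10 widest included Afp, Igf2, Slc4a1, Car2, Csf2rb2, Lrg1, Alas2 and Apoc2. Afp (alpha-fetoprotein, of fetal and tumor hepatocytes) was at 516 CPM in NEJ634, 65.2 in NEJ687, 53.2 in NEJ709 and 115 in NEJ723, and Igf2, a fetal growth factor, at 735, 170.3, 83.6 and 184 CPM. Both were below ambient RNA in each library, which held 1111, 432, 451 and 943 CPM of Afp and 1376, 835, 486 and 1519 CPM of Igf2. Slc4a1, Car2 and Alas2 are expressed by red cells and Apoc2 by hepatocytes. Of the 31 higher genes, 25 were not above ambient RNA in each of the 3 libraries, and the part of ambient RNA in their separation was not tested.

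Only 4 of the 31, Csf2rb2, Lrg1, Ccn2 and Abcc9, were at least 2-fold above ambient RNA in NEJ634, NEJ687 and NEJ723, the last 2 named after their values were seen. Lrg1, a secreted glycoprotein that modulates TGF-beta signalling in vessels (ENSMUSG00000037095, chromosome 17, 56119678 to 56122001, minus strand), was at 143 CPM in NEJ634 (132 to 154), 369 in NEJ687 (333 to 408), 403 in NEJ709 (302 to 527) and 482 in NEJ723 (419 to 552), against 24.6, 27.9 and 22 CPM in NEJ638, NEJ654 and NEJ677. Its ambient levels were 64, 72.6, 75.4 and 61.3 CPM. Csf2rb2, a cytokine receptor subunit of the interleukin 3 family (ENSMUSG00000071714, chromosome 15, 78282507 to 78305721, minus strand), was at 55.1 CPM in NEJ634 (48.7 to 62.1), 103 in NEJ687 (84.5 to 125), 159.6 in NEJ709 (98.8 to 244) and 84.9 in NEJ723 (59.8 to 117) and 6.68 to 10.3 CPM in the other 3 libraries. Both separated the libraries in the stricter set, with Lrg1 at 204, 396, 454 and 556 CPM and Csf2rb2 at 77.1, 113, 241 and 92.3 CPM in the 4. Of the 31 higher genes, 19 did so. Csf2rb2 has a close paralog, Csf2rb, and the effect on its count of reads that fit both was not tested.

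Mest, an imprinted gene, was called over other barcodes in each library, at 290.0 CPM in NEJ634, 294 in NEJ687, 137 in NEJ709 and 211 in NEJ723, while Igf2 and H19, also imprinted, were below ambient RNA in each. NEJ638, NEJ654 and NEJ677 had Mest at 216, 101 and 95.7 CPM. Antigen presentation genes were not called in any of the 3 libraries (0 of 5 at 50 CPM, against 9.08% of all genes tested). With 5 genes, 0 cannot be told apart from that share. H2-K1 was at 541, 998, 600.3 and 211 CPM against 493, 539, 550.0 and 341 CPM in other barcodes. Fosb, an immediate early factor, was at 165, 122, 122 and 2.29 CPM and Egr1 at 464, 302, 190.0 and 57.4 CPM, both lowest in NEJ723. Hspa1a, a heat shock protein, was at 198, 189, 137 and 186 CPM against 974, 585 and 293 CPM, without overlap. Of the 11 hypoxia genes, 0 of 4 at 50 CPM were called in NEJ634, 3 of 7 in NEJ687, 1 of 5 in NEJ709 and 2 of 4 in NEJ723. Over all genes tested, 7.30%, 20.1%, 23.7% and 20.7% were called in the same order of libraries. Ldha, lactate dehydrogenase A, was below ambient RNA in each library at 656, 689, 448 and 479.6 CPM.

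Cell cycle genes set NEJ634 apart. Their summed level was 2086 CPM in NEJ634, 857 in NEJ687, 464 in NEJ709 and 679 in NEJ723, against 2223, 4721, 3103 and 3404 CPM in other barcodes and 2018, 2784, 3019.7 and 1378 CPM in ambient RNA. Cells with at least 3 cell cycle UMIs after thinning were 26% in NEJ634 (24.1 to 28), 5.83% in NEJ687 (2.38 to 11.6), 0% of 18 in NEJ709 (0 to 18.5) and 8.93% in NEJ723 (2.96 to 19.6). In other barcodes they were 29.2%, 30.3%, 26.5% and 19.9%. Among endothelial cells of NEJ638, NEJ654 and NEJ677 the share was 10.1%, 4.11% and 1.55% and the summed level 1129, 525 and 303 CPM. NEJ638 was thus above NEJ687, NEJ709 and NEJ723 in both values. The NEJ634 value was close to that of its other barcodes, and in NEJ687 and NEJ723 it was well below. The part of ambient RNA in it was not tested.

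Markers of other cell types were read over whole lists. The 9 neutrophil genes summed to 12234 CPM in NEJ634, 1275 in NEJ687, 5410.1 in NEJ709 and 188 in NEJ723, and to 24572, 13842, 74571 and 6363 CPM in ambient RNA, with 0, 0, 1 and 1 genes at 0. The 9 hepatocyte-lineage genes summed to 4916 CPM in NEJ634, 1989 in NEJ687, 585 in NEJ709 and 950.0 in NEJ723, against 9701, 8285, 4557 and 9721 CPM in ambient RNA. Both sums lay below ambient RNA in each library. The neutrophil UMIs were spread unevenly over cells. In NEJ634 the median cell had 0.427% of its UMIs from the list, while 182 of the 2013 cells had over 5% and the highest 20.7%, above ambient RNA. In NEJ709 the median was 0.0916%, 5 of the 18 cells had over 5% and the highest had 12%. No cell of NEJ687 or NEJ723 had over 5%. The 11 macrophage genes, 3 of which the selection limited, summed to 3809.8 CPM in NEJ634, 3871 in NEJ687, 2583 in NEJ709 and 984 in NEJ723, above ambient RNA in each (2492, 1686, 1428 and 456 CPM). These UMIs too were spread unevenly. The median cell had 0.18%, 0.0565%, 0.0163% and 0.00235% of its UMIs from the list, below ambient RNA in each library, and the highest cell 3.49%, 2.46%, 0.602% and 1.04%. Of its defining genes, Vsig4 and Timd4 were at 0 in NEJ723 and Marco at 0 in NEJ709. The 10 mesenchymal genes summed to 267, 281, 22.8 and 68.8 CPM, against 160.1, 63.7, 193 and 195 CPM in ambient RNA and 84.8, 9.98, 162 and 71.8 CPM in other barcodes, with 8 at 0 in NEJ709 and 3 in NEJ723. They were above ambient RNA in NEJ634 and NEJ687 and below it in NEJ709 and NEJ723, while the median cell held 0 of their UMIs in each library. The 9 blood progenitor genes, which include Kit and Cd34 of endothelium, summed to 217, 196, 661 and 436 CPM, above ambient RNA in each (124, 91.4, 125 and 67.3 CPM). The sum was carried by Kit, at 112, 100.2, 501 and 138 CPM against 20.4, 22.9, 8.77 and 11.6 CPM in ambient RNA, by Cd34, at 26.8, 15.6, 68.4 and 172 CPM against 7.56, 2.4, 14 and 4.87 CPM, and by the transcription factor gene Mecom, at 21.9, 45.7, 38 and 103 CPM against 2.44, 2.4, 0 and 1.6 CPM. Cd48, a leukocyte surface protein, was at 32.4, 27.2, 45.6 and 13.8 CPM against 45.7, 22.6, 47.4 and 14.4 CPM. Angpt1, Spink2 and Flt3 were at most 9.18 CPM. Myb, a progenitor factor, was at 13.3, 0, 0 and 0 CPM and Hlf at 6.15, 1.95, 0 and 0 CPM, below ambient RNA in each. T and NK genes summed to 179, 3.89, 15.2 and 13.8 CPM and B genes to 48.2, 2.92, 15.2 and 22.9 CPM, below ambient RNA in each. Megakaryocyte genes summed to 101, 197, 159.6 and 257 CPM, against 99.7, 179.7, 153 and 117 CPM in ambient RNA, and only in NEJ723 did the counting interval lie above ambient RNA. Cholangiocyte genes summed to 234, 51.6, 22.8 and 78 CPM and erythroid genes to 983, 449, 684 and 762 CPM, both below ambient RNA in each, and mesothelial genes to at most 0.615 CPM. S100a8, Camp, Ngp, Ltf, Cxcl2, Clec4f, Hamp and Xist were, with Cd200 and Fosb, the 10 widest in range between the 3 larger libraries, and S100a8, a neutrophil calprotectin subunit, ran from 55.1 CPM in NEJ723 to 4437 CPM in NEJ634, both below ambient RNA. The part of these cells' RNA in the results was not tested.

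Within NEJ634, Pecam1, Fcgr2b and Lyve1 were higher and S100a8, Afp and Mki67 lower in cells with a larger share of selecting-gene UMIs. Because the division used the selecting genes, co-expressed genes rise and RNA of other cells falls with it in part by construction. The values describe the cells and are no test. From 1157 cells at 0.2% to 0.4%, through 577 at 0.4% to 0.6%, to 279 at 0.6% and over, Pecam1 was at 195, 259 and 483 CPM, Fcgr2b at 442, 685 and 1121 CPM and Lyve1 at 353, 543 and 676 CPM. Over the same ranges, S100a8 was at 5459, 4378 and 1319 CPM, Afp at 652, 396 and 242 CPM and Mki67, a proliferation marker, at 413, 376 and 211 CPM. Esm1 did not rise, at 31.1, 26.1 and 27.6 CPM. Wnt2 was at 15.9, 24.4 and 38.7 CPM, below the other 3 libraries in each range, where it was at 60.3, 88.9 and 84.9 CPM, 126, 176 and 197 CPM and 232, 310.4 and 360.2 CPM from the lowest range to the highest. Fabp4 was at 1902, 2988 and 4277 CPM, above the other 3 libraries in each range, where it was at 792, 938 and 1592 CPM, 2050.4, 1994 and 1841 CPM and 3021, 2483 and 2741 CPM. As given for Lyve1, cells in the same range are not alike between libraries. The part of this in Wnt2 and Fabp4 was not tested.

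**Figure D5:**
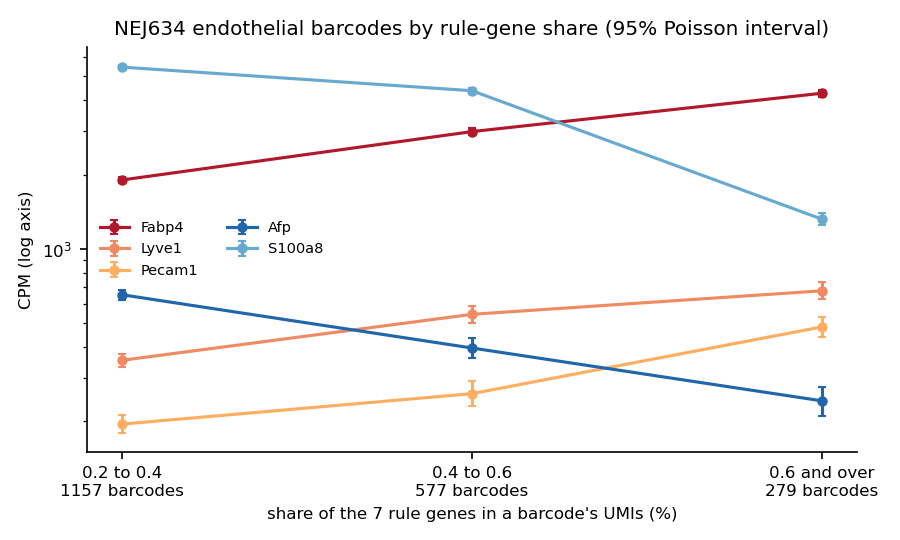
Level of 3 endothelial genes, Afp and S100a8 in NEJ634 cells (CPM, log axis, with exact 95% Poisson intervals) by the percent of their UMIs from the 7 selecting genes, called rule genes in the plot: 0.2 to 0.4, 0.4 to 0.6, and 0.6 and over. Pecam1, Fabp4 and Lyve1 are highest at 0.6 and over, and S100a8 and Afp are lowest there. Since the division used the selecting genes, these trends are fixed in part and are no test.

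Barcodes at the edge of the selection were compared with it in NEJ634, as values only. Just inside the limits, 682 barcodes had Pecam1 at 157 CPM, Lyve1 at 313 CPM and Fabp4 at 1454 CPM. Just outside, 1126 barcodes had 137, 213 and 1162 CPM. Lyve1 and Fabp4 were higher just inside, with counting intervals that did not overlap, and those of Pecam1 overlapped. Both sets lay far above the 26488 barcodes with no UMI of the 7 genes, at 25.5, 13.8 and 117 CPM. All these sets were chosen by UMIs of the 7 genes, with a median of 4 just inside and 3 just outside. Co-expressed genes differ between them in part by construction, so the values are no test. The other libraries had 4, 5 and 2 barcodes just inside and 7, 23 and 7 just outside in NEJ687, NEJ709 and NEJ723.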

How the data were processed

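The 10x 3' single-cell libraries were deposited by the authors as raw UMI counts of all barcodes, neither normalized nor filtered for cells. Per the file headers these matrices came from Cell Ranger 4, while the submitters' processing notes name Cell Ranger 6.0, and the study's methods say that introns were counted. The genome build is not given in the sources used here. Gene positions are from GENCODE M21 and promoters from RefSeq GRCm38.p6. Each library lists 1612660 to 2733475 barcodes and 40214395 to 132485391 UMIs over 32285 genes.

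Barcodes were selected and counts summed per library with Python 3.11.15, numpy 2.4.6, scipy 1.17.1, pandas 2.3.3 and matplotlib 3.10.9. CPM used UMIs of genes not starting mt-, Hba- or Hbb-. A library with 0 UMIs of a gene was set to 3 UMIs in ratios. The level of 3 UMIs was 0.615 CPM in NEJ634, 2.92 in NEJ687, 22.8 in NEJ709 and 6.88 in NEJ723. Libraries with under 20 cells (NEJ709) were left out of calls over several libraries. Up to 3000 other barcodes per library were thinned for shares. No doublet caller was run, and the limit on C1q genes is the only step against mixed barcodes.

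Named genes were those of 30 lists, the 20 genes with the largest smallest fold over other barcodes, the 10 widest separating genes in each direction and the 10 with the widest range between libraries. Some of these genes are not reported here. Members, lists and limits were chosen with earlier results of these data known. The labels gave 0 groups, so no test was made. Alternatives changed the selection, the CPM total, cell weights, ambient subtraction, size limits, depth and libraries. The calling step was tested on simulated counts.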

Additional observations from a re-analysis of the deposited data

Results flagged for a closer look

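Barcodes outside the selection carried its genes too. In the 4 libraries together, 245 barcodes met every limit but that on UMIs and held 500 to 1000 UMIs, 222 of them in NEJ634, 12 in NEJ687, 4 in NEJ709 and 7 in NEJ723. In NEJ634 these barcodes had Pecam1 at 242 CPM (172 to 330) and Fabp4 at 1735 CPM (1538 to 1951), beside 263 and 2598 CPM in the cells counted. In NEJ687 they had Pecam1 at 1009 CPM (461 to 1915) and Fabp4 at 12776 CPM, beside 430 and 10949 CPM in the cells counted. In NEJ723 the 7 barcodes had Fabp4 at 1181 CPM (433 to 2570.3), beside 6572 CPM in the cells counted, and 0 UMIs of Pecam1. In NEJ709 the 4 barcodes had Fabp4 at 1267 CPM, from 3 UMIs, beside 3662 CPM. Fabp4 was thus lower than in the cells counted in NEJ634 and NEJ723, while its interval in NEJ709 (261 to 3702) included the level of the cells counted.

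A further 11 barcodes met every limit but that on the complement genes C1qa, C1qb and C1qc, with 6 in NEJ634, 4 in NEJ687, 0 in NEJ709 and 1 in NEJ723. They had a median of 3185 UMIs in NEJ634 and 20726 in NEJ687, and 30011 in NEJ723. Cd5l, a macrophage gene, was at 4776 CPM in those of NEJ634, 4529 CPM in those of NEJ687 and 1518 CPM in that of NEJ723. Pecam1 was at 122, 253 and 172 CPM in the same barcodes. In NEJ634 that value rests on 2 UMIs. The choice of these barcodes fixed that they hold both the selecting genes and C1q genes.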

How the results depend on the processing

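The number of cells moved with the limits, from 2207 to 1111 over 2000 UMIs, 1365 with at least 6 UMIs of the selecting genes, 1020 at 0.4% of UMIs and 453 in the stricter set chosen after seeing the data. The 231 genes higher than in other barcodes became 133 at 8-fold, 445 at 2-fold, 399 at 20 CPM, 712 with no minimum, 370 in the stricter set and 349 after subtracting a 30% ambient share, also chosen after seeing the data. Leaving out 1 library gave 235 to 498, the highest without NEJ634. The 31 genes separating the libraries upward became 20 without haemoglobin-rich barcodes, 10 at 4-fold, 366 with no overlap alone, 67 at 20 CPM and 1140 with no minimum. Leaving out 1 library gave 32 to 80, with 56 without NEJ634, 48 without NEJ687 and 80 without NEJ723. The 50 downward became 30 with a minimum of 500 UMIs, 3 at 4-fold, 878 with no overlap alone, 89 at 20 CPM and 124 with no minimum. Leaving out 1 library gave 55 to 97, with 97 without NEJ687, 80 without NEJ723 and 84 without NEJ654. Fewer libraries and lower limits let more genes pass by construction. Of the lists, 7 were at least 4-fold above other barcodes in each library, and leaving out 1 library gave 7 to 11, with 11 without NEJ634. Levels in single libraries depended on the settings too. Over libraries and alternatives, Fabp4 levels counted as moved in 34 values and as the same in 30. Such counts were 26 and 38 for Lyve1, 23 and 41 for Fcgr2b, and 5 and 59 for both Wnt2 and Esm1. They were 34 and 30 for the sinusoidal sum, 37 and 27 for the continuous capillary sum and 26 and 38 for the cell cycle sum. Counting intervals do not cover such moves. For the other changes the cause was not tested. No paired analysis was possible because the labels give no groups. NEJ709, with 18 cells, and NEJ723, with 56, limit what low genes can show.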
